A study of Mus musculus with 4 samples.

Results

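The transcription factors IRF8, IRF4, BATF3, ID2, TCF4, KLF4, MAF, CEBPB and SPI1 were followed across human dendritic cells, monocytes and macrophages that had infiltrated a breast tumor in mice. They are 9 of the 36601 genes in the count matrices and were picked by symbol as textbook regulators of the myeloid lineages, with earlier results of these data known. Each of the 9 symbols matched 1 row. The cells came from MISTRG mice, a strain carrying human myeloid growth factor genes, which had been engrafted with human CD34+ cells of fetal liver and bore tumors of MDA-MB-231, a human breast carcinoma line. From day 21 of tumor growth 7 mice drank water holding the drug maraviroc at 300 mg/l over 10 days, and 7 mice were left untreated. Tumors were taken on day 31. Tumor cell suspensions were marked with 1 hashtag antibody per mouse. Living human CD45+ cells were then sorted and pooled into 2 droplet reactions of 7 mice, so each reaction held both treatments. The p-values below measure the spread between mice, told apart by their hashtags. All the animals carried the tumor and the same human growth factor genes, so the groups hold no tumor-free cells. The feature lists name the treatment with each hashtag, and all compared cells are of human origin inside a mouse host.

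Blood cell fate is set by small sets of transcription factors that act together. SPI1 (PU.1) opens myeloid genes in general, IRF8 with BATF3 marks the conventional type 1 dendritic cell (cDC1), which presents captured antigen to CD8 T cells, and IRF4 is associated with the type 2 lineage (cDC2) and with mature, migratory dendritic cells. TCF4 (E2-2) defines plasmacytoid dendritic cells (pDC), the main interferon producers, and ID2 opposes it by binding E proteins. CEBPB and KLF4 accompany monocytes, and MAF accompanies resident-type macrophages.

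Cells were assigned to classes by UMIs (unique molecular identifiers, 1 per captured transcript) of surface marker genes, never by a member. Of 37806 barcodes that passed the limits on genes and mitochondrial counts, 19871 were assigned to 1 mouse. They held 149 pDC (CLEC4C, LILRA4), 178 mature dendritic cells (CCR7, LAMP3), 63 cDC1 (CLEC9A, XCR1), 239 cDC2 (CD1C, FCER1A), 1520 monocytes (CD14 with other monocyte surface genes) and 5687 macrophages (MSR1, TREM2, VSIG4 or MERTK). Cells gated as cDC2 or monocytes also had under 2 UMIs of the macrophage genes. Another 282 cells held markers of cDC2 and of macrophages and were put in no class, and 4809 cells met no gate. The macrophages were divided into 238 GLUT1+ cells (UMIs of SLC2A1, the glucose transporter), 182 LYVE1+ cells, 1003 TREM2+ cells and 4264 other macrophages. Levels are given in CPM, counts per 1e6: the member's UMIs divided by all UMIs of that class in that mouse, from at least 10 cells (at least 3 for cDC1). Because 1 UMI stands for 1 transcript end, CPM needs no correction for gene length. Reaction 1 was the shallower, with a median of 2752 UMIs per kept barcode against 10742 in reaction 2, and 136 barcode sequences occurred in both.

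The gates were checked against marker genes they had not used. All 7 pDC, all 7 mature dendritic cell, all 7 monocyte and all 9 macrophage markers were highest in their own class, as were 6 of 7 cDC1 markers. Of the 6 cDC2 markers only 2 were highest in the CD1C/FCER1A gate. The 6 markers summed to 1361 CPM in that gate, 2168 CPM in cDC1 and 1215 CPM in mature dendritic cells. The CD1C/FCER1A cells also carried a summed 6158 CPM of the monocyte markers, against 20884 CPM in monocytes. The NK gate held a summed 6172 CPM of the monocyte markers and 5517 CPM of the macrophage markers, so T and B cells are the comparators used below. The part of these mixtures in the results was not tested.

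**Figure D1:**
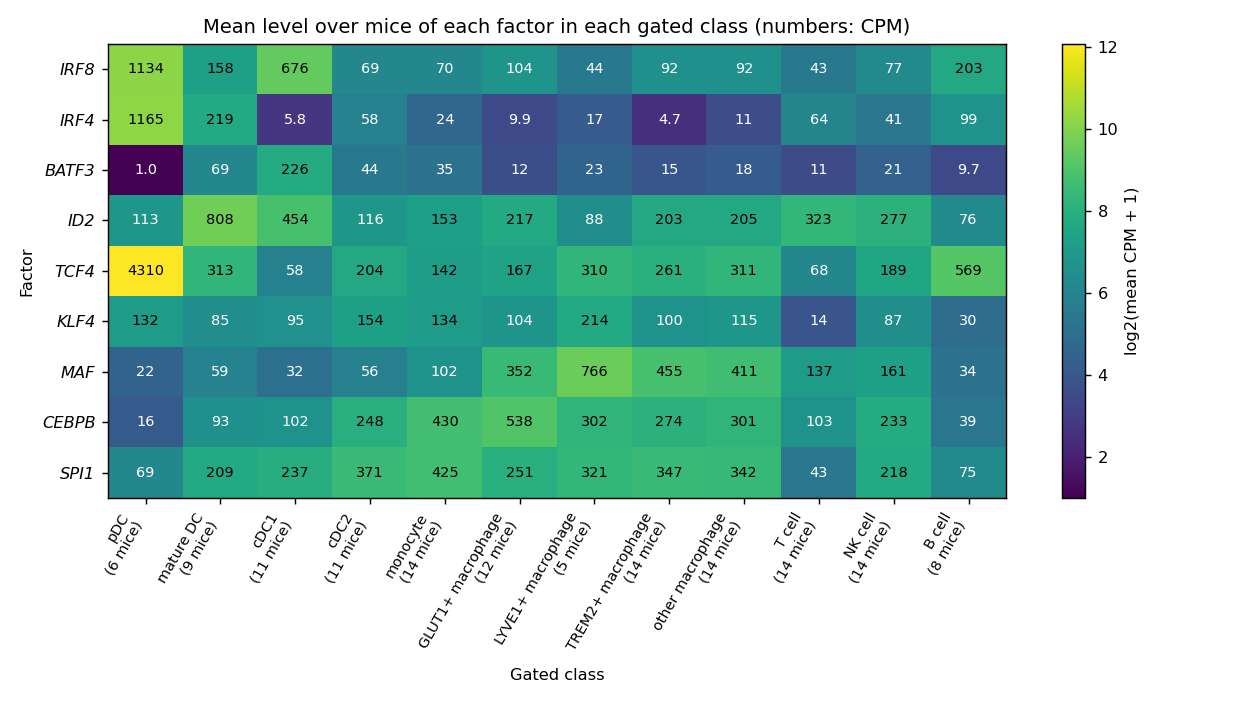
Mean level of each of the 9 factors (rows) in each gated class (columns, with the number of mice), coloured by log2(mean CPM + 1) and labelled with the mean CPM. TCF4 in pDC is the highest cell of the map at 4310 CPM and BATF3 in pDC the lowest at 0.988 CPM.

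IRF8, the factor needed for cDC1 and shared with pDC, was highest in those 2 classes. Over 6 mice the IRF8 level in pDC was 938 CPM at the lowest, 1116 CPM at the median and 1387 CPM at the highest. In cDC1 it was 482, 659 and 958 CPM over 11 mice. No other myeloid class reached the lowest cDC1 value, since mature dendritic cells, the third class in the order, ended at 284 CPM. IRF8 was higher in pDC than in cDC1 in 6 of 6 mice, by 0.86 ± 0.29 (SD) on the log2(CPM + 1) scale, a difference that missed the threshold (exact paired permutation p = 0.0312, the smallest 6 mice allow, adjusted p = 0.0503 over 576 pairs of classes and members). cDC1 were above mature dendritic cells in 8 of 8 mice (exact permutation p = 0.00781, adjusted p = 0.0192). After thinning each cell to 2000 UMIs, 78.6% of pDC and 67.7% of cDC1 had a UMI of IRF8 against 6.24% of T cells; without thinning these shares were 91.9%, 90.5% and 14.4%.

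BATF3, the partner of IRF8 in cDC1, separated these 2 classes. Its level in cDC1 was 129 CPM at the lowest, 190 CPM at the median and 518 CPM at the highest mouse, and the next class, mature dendritic cells, ran from 19.7 over 70.4 to 134 CPM. The 2 ranges overlapped only at their ends, and cDC1 were higher in 7 of 8 paired mice (exact permutation p = 0.0156, adjusted p = 0.0317). In pDC, BATF3 was at 0 in 5 of 6 mice and at 5.93 CPM in the other. Over all 149 pDC there were 10 BATF3 UMIs, against 194 in 63 cDC1, a 37.5-fold higher level in cDC1 (95% counting interval 19.9 to 79.4). Of the 10 pDC UMIs, 9 lay in mice with under 10 pDC, so this fold depends on those cells. Over the 6 mice used for the pDC level, with 1 UMI, and the 11 mice used for cDC1, with 189, the ratio was 247 (interval 43.9 to 9819). Both IRF8 and BATF3 were found in 47 of 63 cDC1.

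IRF4, which pairs with PU.1 in dendritic and B cells, had the opposite order to BATF3 in cDC1 and pDC. In pDC the IRF4 level was 816 CPM at the lowest, 1175 CPM at the median and 1514 CPM at the highest mouse. The values of reaction 1 were the lowest, at 816 and 847 CPM. cDC1 had 2 IRF4 UMIs in all 63 cells, in 2 cells, and 10 of 11 mice were at 0. The pooled level was 23.8-fold higher in cDC2 than in cDC1 (95% counting interval 6.48 to 198) and 105-fold higher in mature dendritic cells than in cDC1 (interval 29.0 to 870). Mature dendritic cells came second, with a lowest value of 32.4, a median of 247 and a highest value of 514 CPM. Their spread was wide, since 6 mice lay between 226 and 514 CPM and 3 between 32.4 and 65.2 CPM, and the 3 low mice were the 3 of reaction 1. Thinned to 2000 UMIs, IRF4 was found in 65.5% of pDC, 24.0% of mature dendritic cells and 9.33% of T cells (unthinned 83.9%, 52.2% and 21.1%).

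**Figure D2:**
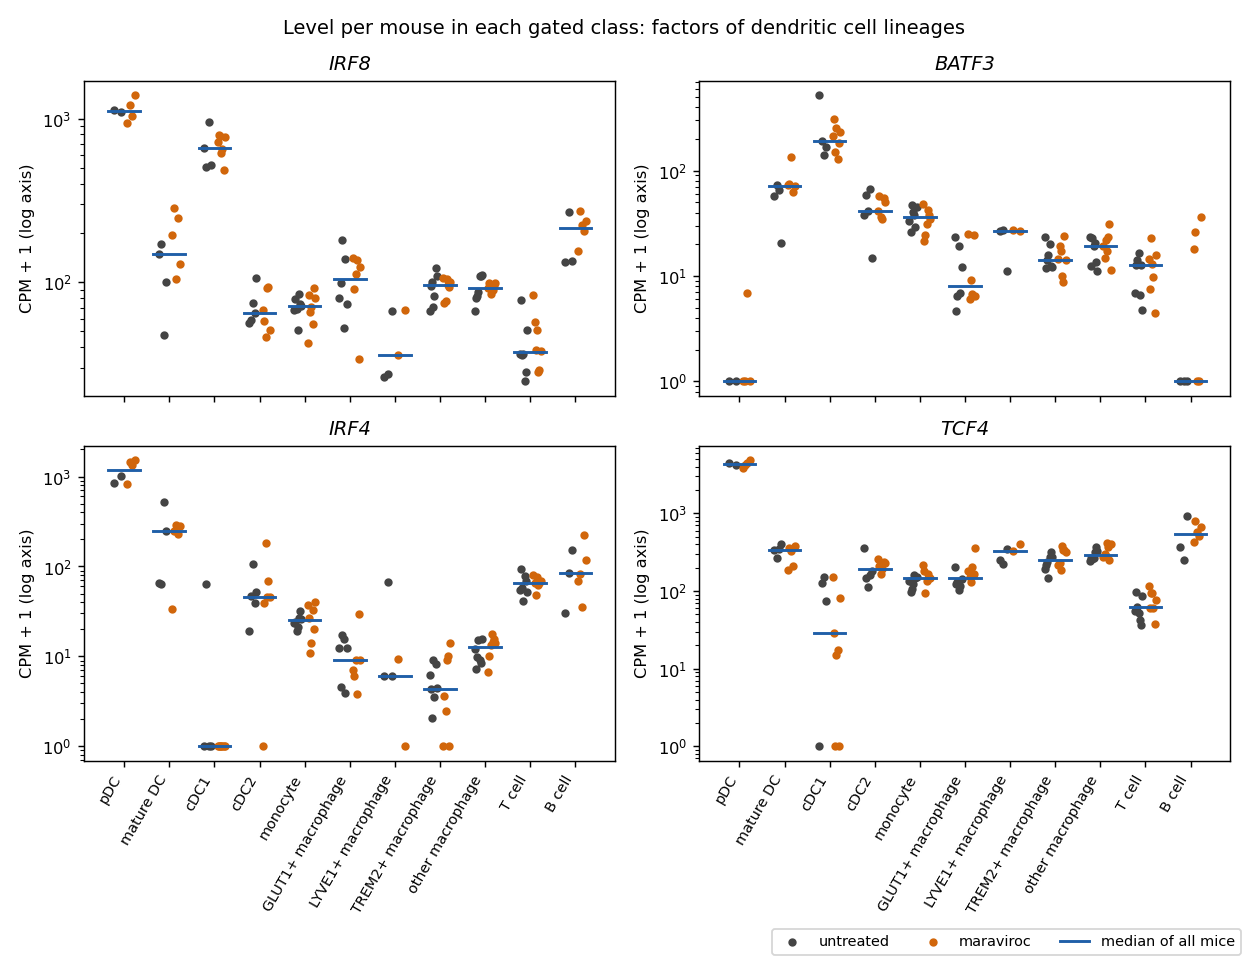
Level per mouse (CPM + 1, log axis) of IRF8, BATF3, IRF4 and TCF4 in the 9 myeloid classes and in T and B cells; each point is 1 mouse, grey untreated and orange maraviroc, and the line is the median of all mice. IRF8 stands high in pDC and cDC1, BATF3 in cDC1 (median 190 CPM), and IRF4 and TCF4 in pDC (medians 1175 and 4308 CPM).

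TCF4, the E protein that defines pDC, had the highest level of any member in any class. In pDC it ran from 3838 over a median of 4308 to 4830 CPM, and every other myeloid value lay at or below 416 CPM. B cells, which also use E proteins, came next over all 12 classes with a median of 545 CPM. cDC1 were lowest, with a median of 28.2 CPM and 3 of 11 mice at 0, below monocytes in 10 of 11 mice (exact permutation p = 0.00195, adjusted p = 0.00865). Of the pDC, 90.3% had a UMI of TCF4 after thinning, against 8.08% of T cells (unthinned 95.3% and 17.4%). IRF8 and TCF4 were found together in 132 of 149 pDC, and IRF4 and IRF8 in 115.

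ID2, the inhibitor that binds E proteins such as TCF4, was highest in mature dendritic cells, at 483 CPM in the lowest, 751 CPM in the median and 1127 CPM in the highest mouse. cDC1 followed with 64.7, 438 and 705 CPM, and were lower in 8 of 8 paired mice (exact permutation p = 0.00781, adjusted p = 0.0192). T cells had a median of 319 CPM, and the medians of the macrophage classes lay between 101 and 207 CPM. The T cell values ran from 301 to 474 CPM in reaction 1 and from 198 to 449 CPM in reaction 2. GLUT1+ macrophages were above the T cells of untreated mouse 3 (385 against 337 CPM) and maraviroc mouse 6 (340 against 209 CPM), and below them in the remaining mice. ID2 and TCF4 were then set against each other within each mouse, with no test of the difference between classes. On the log2(CPM + 1) scale the mean difference of ID2 from TCF4 was -5.35 ± 0.61 (SD, n = 6) in pDC, with TCF4 higher in 6 of 6 mice, and ID2 was above TCF4 in 9 of 9 mice in mature dendritic cells (1.37 ± 0.55) and in 11 of 11 mice in cDC1 (mean difference 4.35 ± 3.16, with TCF4 at 0 in 3 of them). In cDC2 TCF4 was the higher in 10 of 11 mice, with a mean difference of -0.80 ± 0.56. Monocytes were divided, with ID2 higher in 8 mice and TCF4 in 6.

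IRF8 and IRF4 were set against each other in the same way. In pDC the mean difference was -0.0048 ± 0.31 on the log2(CPM + 1) scale, less than the spread between mice, with IRF8 higher in 3 of 6 mice. In reaction 1, IRF8 and IRF4 were 938 and 816 CPM in maraviroc mouse 1, and 1133 and 847 CPM in untreated mouse 4. In reaction 2, IRF8 was the lower in maraviroc mice 4, 5 and 7 and the higher in untreated mouse 6. IRF8 was higher in 11 of 11 mice in cDC1 and in 14 of 14 mice in monocytes (1.53 ± 0.63). It was also higher in 14 of 14 mice in TREM2+ macrophages (4.41 ± 1.23) and in 9 of 11 mice in cDC2 (0.86 ± 1.97). In mature dendritic cells the difference ran from -3.43 to 2.55, IRF8 being the higher in 5 mice and IRF4 in 4. IRF8 was the higher in 3 of 3 mice of reaction 1, the shallower, and IRF4 in 4 of 6 mice of reaction 2.

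**Figure D3:**
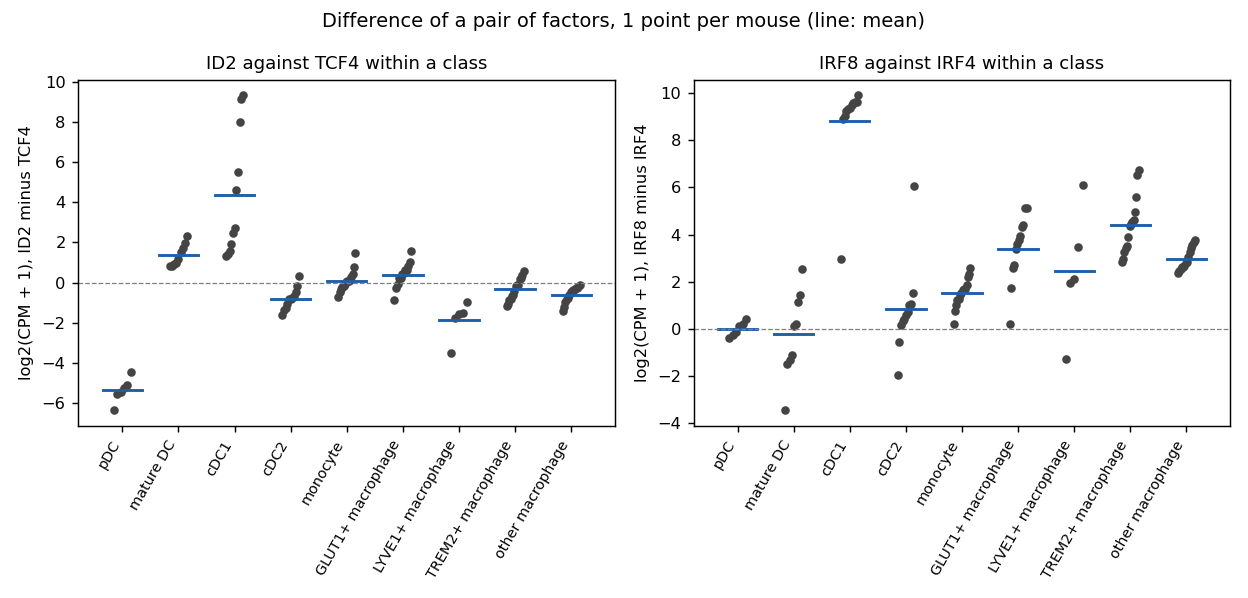
Difference of log2(CPM + 1) between ID2 and TCF4 (left) and between IRF8 and IRF4 (right) in the 9 myeloid classes; each point is 1 mouse and the line is the mean. The ID2 panel runs from a mean of -5.35 in pDC to 4.35 in cDC1, and in the IRF8 panel mature dendritic cells spread to both sides of 0, with all 3 mice of reaction 1 above it and 4 of 6 mice of reaction 2 below it.

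The classes were then compared over all genes with edgeR's quasi-likelihood test, with the mouse as a block. A gene was called at an adjusted p under 0.05 and a log2 fold change of at least 1 in size. The contrasts with cDC1 took sums of at least 3 cells in every class, and the others sums of at least 10. In cDC1 against cDC2, 3 of 9 members were called higher, beside 6.39% of all genes tested, and 3 lower, beside 11.8%. IRF8 rose by a log2 fold change of 3.30 ± 0.20 (standard error), BATF3 by 2.30 ± 0.24 and ID2 by 2.02 ± 0.22 (edgeR adjusted p = 1.7e-13 or smaller for each). TCF4, with a log2 fold change of -1.58 ± 0.28, and CEBPB, with -1.30 ± 0.25, were lower, and IRF4 was the third that fell (adjusted p = 1.5e-05; its counts are given above). KLF4, MAF and SPI1 were not called. MAF passed both limits with gates of 3 UMIs (-1.46), with the first planned tumor gate on EGFR and CD109 (-2.11) and without a filter on low counts (-1.07). KLF4 did so in reaction 1 alone (-2.23, edgeR adjusted p = 0.0119). With CD163 and MRC1 added to the macrophage gate, the 3 lower calls were lost, TCF4 at -0.80 (edgeR adjusted p = 0.371), CEBPB at -0.79 (0.292) and IRF4 at an adjusted p of 0.129. The IRF4 call was also lost in reaction 1 alone (edgeR adjusted p = 0.119).

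Mature dendritic cells arise from either conventional lineage by activation, so they were set against both. Against cDC1, 4 members were called higher (16% of all genes) and 2 lower (6.32%). IRF4 and TCF4 (log2 fold change 2.37 ± 0.28) led the higher side, with MAF at 1.10 ± 0.41 and ID2 at 1.02 ± 0.20, while IRF8 fell with -1.88 ± 0.19 and BATF3 with -1.56 ± 0.24. The ID2 estimate fell under the fold limit in 4 alternatives (0.89 to 0.98). The MAF call was lost in reaction 2 alone (0.72, edgeR adjusted p = 0.342) and with gates of 3 UMIs (1.11, adjusted p = 0.103). Against cDC2, 3 members were called higher (9.72%) and 1 lower (6.78%). ID2 rose by 2.91 ± 0.17, IRF4 by 2.03 ± 0.29 and IRF8 by 1.20 ± 0.20 on the log2 scale, and CEBPB fell with -1.46 ± 0.19 (edgeR adjusted p = 1.1e-06 or smaller for each). In reaction 1 alone the IRF4 difference was 0.28 (edgeR adjusted p = 0.874), and with gates of 3 UMIs the IRF8 difference was 0.51 (adjusted p = 0.0865).

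In pDC against cDC2, 3 members were called higher (13.6% of all genes) and 4 lower (21.6%). TCF4 rose by 4.29 ± 0.15, IRF4 by 4.20 ± 0.29 and IRF8 by 3.86 ± 0.19 on the log2 scale. CEBPB (-3.94 ± 0.30), SPI1 (-2.55 ± 0.16) and MAF (-2.34 ± 0.48) fell, and BATF3 was 8.41-fold higher in cDC2 by pooled UMIs (95% counting interval 4.44 to 17.9) and was called lower in pDC. Of its 10 pDC UMIs 1 lay in the 6 mice that entered the fit. ID2 (0.02 ± 0.24) and KLF4 (-0.24 ± 0.20) were not called.

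SPI1, the general myeloid factor, was highest in monocytes. Its median was 422 CPM in monocytes, 375 CPM in cDC2, between 247 and 345 CPM in the macrophage classes, 238 CPM in cDC1, 216 CPM in mature dendritic cells and 75.5 CPM in pDC, against 43.3 CPM in T cells. Across mice pDC and T cells overlapped, since pDC ran from 44.9 to 88.2 CPM and T cells from 9.99 to 88.9 CPM. The T cell values were split by reaction, 48.3 to 88.9 CPM in reaction 1 and 9.99 to 38.4 CPM in reaction 2. Their median of 43.3 CPM lay between these ranges. Within each of the 6 mice with a pDC sum, pDC were above the T cells of the same mouse. The closest values were 47.4 against 38.4 CPM in maraviroc mouse 5. Monocytes were above GLUT1+ macrophages in 12 of 12 mice (exact permutation p = 0.000488, adjusted p = 0.00414). None of the neighbouring pairs in the order of the myeloid classes passed the test. Those of 5 mice could not pass, since the smallest p that 5 mice allow is 0.0625 (exact permutation). Mature dendritic cells against pDC, at means of 209 and 69.0 CPM, stood at that p. So did LYVE1+ against GLUT1+ macrophages, at means of 321 and 251 CPM.

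CEBPB, a factor of inflammatory monocyte genes, was highest in GLUT1+ macrophages (377 to 803 CPM, median 516 CPM) and monocytes (232 to 500.5 CPM, median 441 CPM). These 2 ranges overlapped, and the paired difference missed the threshold after adjustment (exact permutation p = 0.0469, adjusted p = 0.0738). With CD163 and MRC1 in the macrophage gate the order turned, with a mean of 546 CPM in monocytes and 526.4 CPM in GLUT1+ macrophages. pDC were lowest with a median of 16.0 CPM. KLF4 accompanies monocyte differentiation. Its mean lay between 85.0 CPM in mature dendritic cells and 214 CPM in LYVE1+ macrophages, while T cells had a mean of 14.1 CPM. None of the 8 neighbouring pairs in the order of the myeloid classes passed the test. Pairs of 6 mice or fewer could not pass, since the smallest p of 6 mice (0.0312, exact permutation) had an adjusted p of 0.0503. LYVE1+ macrophages against cDC2, the first pair in the order, had 3 mice. Of all 34 pairs of myeloid classes 6 passed. Among these, KLF4 was higher in monocytes than in TREM2+ macrophages in 13 of 14 mice (log2 difference 0.44 ± 0.40, exact permutation p = 0.0011, adjusted p = 0.00565) and lower in mature dendritic cells than in monocytes in 9 of 9 mice (-0.82 ± 0.83, exact permutation p = 0.00391, adjusted p = 0.0124).

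MAF, a factor of resident-type macrophages, divided macrophages from the other myeloid classes. Its level was 52.9 CPM at the lowest, 103 CPM at the median and 142 CPM at the highest mouse in monocytes, and the lowest of all macrophage values was 175 CPM. Monocytes were thus below TREM2+ macrophages in 14 of 14 mice, by a mean difference of -2.17 ± 0.50 on the log2(CPM + 1) scale (exact permutation p = 0.000122, the smallest 14 mice allow, adjusted p = 0.0016). The 5 LYVE1+ values were 697 and 776 CPM in the maraviroc mice and 766, 773 and 822 CPM in the untreated mice. All 5 were above every other macrophage sum, of which the highest was 608 CPM. After thinning, 78.9% of LYVE1+ and 60.5% of TREM2+ macrophages had a UMI of MAF, against 24.0% of T cells (unthinned 97.3%, 94.0% and 41.9%).

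MAF and CEBPB were also set against each other within each mouse. On the log2(CPM + 1) scale the mean difference of MAF from CEBPB was -2.10 ± 0.57 in monocytes, with CEBPB higher in 14 of 14 mice. It was -0.66 ± 0.64 in GLUT1+ macrophages, where CEBPB was higher in 10 of 12. MAF was the higher in 12 of 14 mice in other macrophages (0.43 ± 0.38), in 13 of 14 in TREM2+ macrophages (0.71 ± 0.46) and in 5 of 5 in LYVE1+ macrophages (1.36 ± 0.30).

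**Figure D4:**
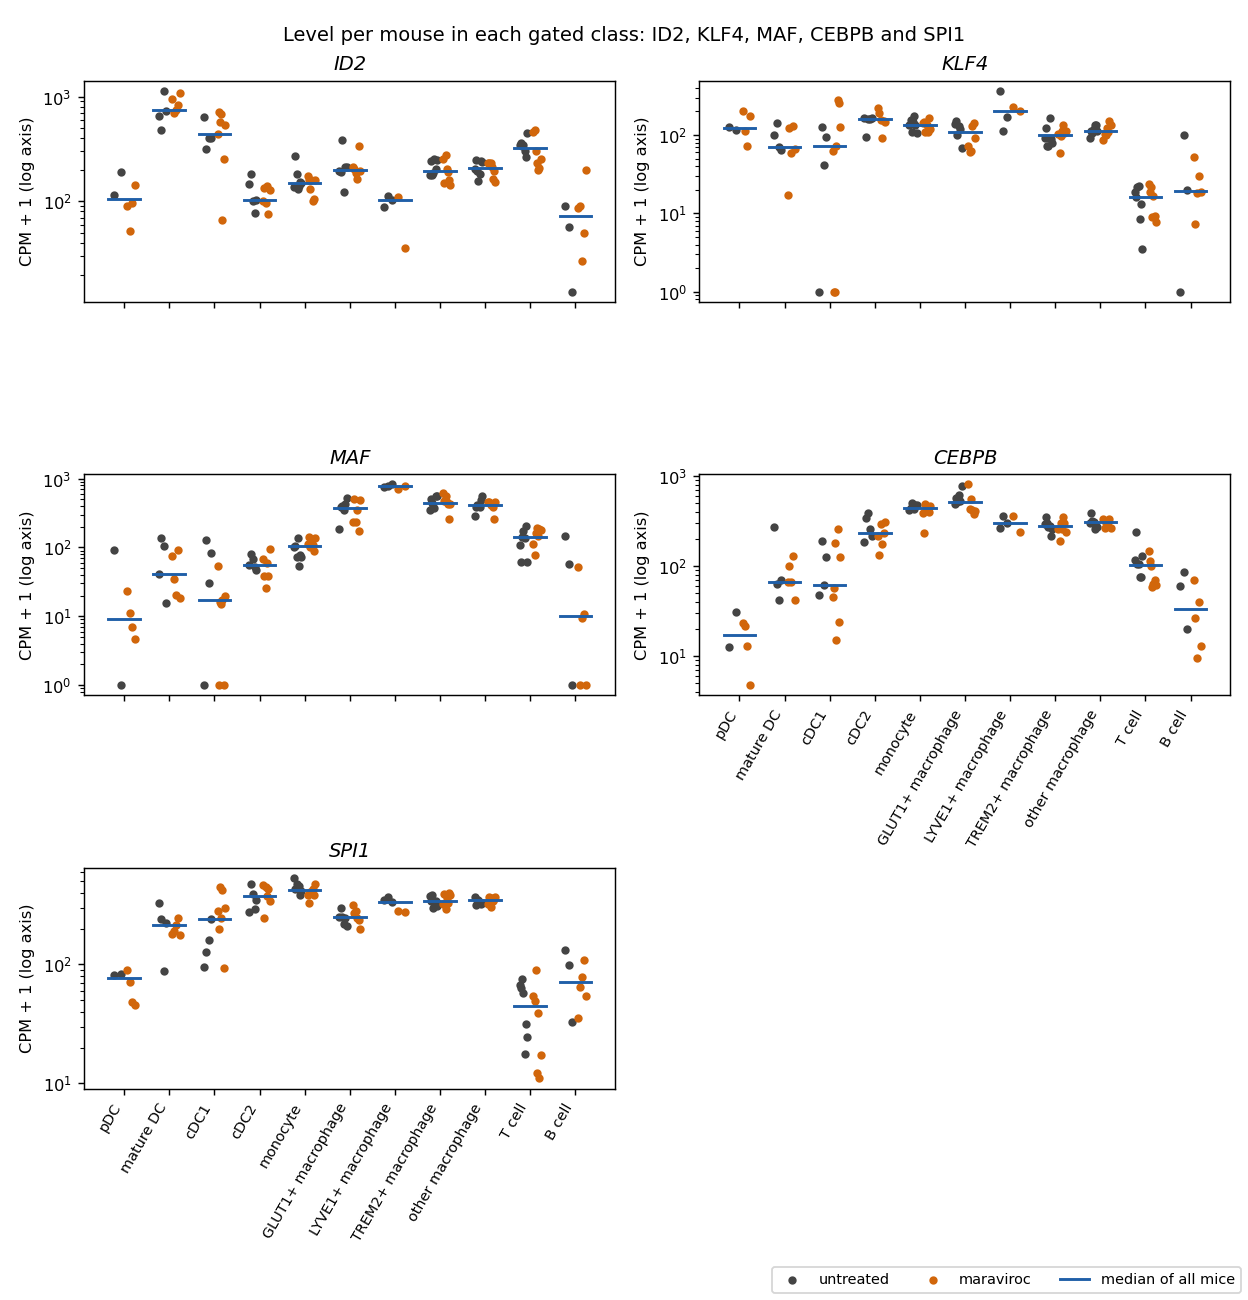
Level per mouse (CPM + 1, log axis) of ID2, KLF4, MAF, CEBPB and SPI1 in the same classes, points and lines as in the plot of IRF8, BATF3, IRF4 and TCF4. MAF climbs from the dendritic cells and monocytes (median 103 CPM) to LYVE1+ macrophages (median 773 CPM), and the mean of KLF4 lies between 85.0 and 214 CPM in the myeloid classes.

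In monocytes against the 4 macrophage classes, 2 members were called higher (7.01% of all genes) and 1 lower (8.25%). IRF4 rose by 1.44 ± 0.26 and BATF3 by 1.19 ± 0.13, and MAF fell with -2.17 ± 0.13 on the log2 scale (edgeR adjusted p = 1.9e-06 or smaller for each). IRF4 was low on both sides, at a median of 24.2 CPM in monocytes and 11.6 CPM in other macrophages. With CD163 and MRC1 added to the macrophage gate, IRF4 (0.83, edgeR adjusted p = 0.0521) and BATF3 (0.90) fell under the limits. TCF4 passed both limits with that gate (-1.04). In cDC2 against monocytes only IRF4 was called, higher by 1.18 ± 0.31 (edgeR adjusted p = 0.0019), beside 3.81% of all genes higher and 3.15% lower. That call was lost in 3 alternatives, at 0.83 to 0.93, and the exact test within 11 mice gave p = 0.308 by permutation. With gates of 3 UMIs MAF was called lower in cDC2 (-1.10). The cDC2 gate was also the one with the least distinct markers.

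GLUT1+ macrophages, against the other 3 classes of macrophage, had no member past the fold limit (4.82% of all genes were called higher and 2.13% lower). Below that limit, 6 of 9 members had an edgeR adjusted p under 0.05, as had 29.9% of all genes tested at any fold. CEBPB (0.95 ± 0.11), IRF8 (0.64 ± 0.15) and ID2 (0.58 ± 0.13) had positive log2 fold changes, and TCF4 (-0.70 ± 0.11), MAF (-0.45 ± 0.14) and SPI1 (-0.32 ± 0.09) negative ones. With gates of 3 UMIs, CEBPB at 1.05 and TCF4 at -1.48 passed both limits. The macrophage classes differed in depth. In reaction 1 the median UMIs per cell were 11484 in GLUT1+, 7761 in LYVE1+ and 10715 in TREM2+ macrophages, against 3677 in other macrophages. In reaction 2 they were 13061, 13984 and 14654 against 12494. The part of this gap in the contrasts of macrophage classes was not tested.

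In LYVE1+ macrophages against the other 3 classes, KLF4 was called higher (1.03 ± 0.15, beside 4.29% of all genes) and ID2 (-1.26 ± 0.20) and IRF8 (-1.13 ± 0.23) lower (beside 5.47%), with MAF at 0.86 ± 0.17 under the fold limit (edgeR adjusted p = 8.1e-05 or smaller for each). This rests on 5 mice, in which ID2 stood at 109 and 35.1 CPM under maraviroc and at 86.8, 110 and 101 CPM untreated. The lowest ID2 value was 122 CPM in GLUT1+, 141 CPM in TREM2+ and 151 CPM in other macrophages, so the ranges did not meet. The KLF4 estimate fell to 0.94 without untreated mouse 2 and to 0.97 without maraviroc mouse 5, and was under the limit in 4 other settings. With CD163 and MRC1 in the gate all 3 calls fell under the fold limit, at 0.87 for KLF4, -0.96 for ID2 and -0.95 for IRF8. The IRF8 call was also lost in reaction 2 alone (-0.85, edgeR adjusted p = 0.0558) and with at least 3 cells per sum (-0.86, under the fold limit).

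In TREM2+ macrophages, whose marker is a lipid receptor, only IRF4 was called, lower with -1.17 ± 0.41 (edgeR adjusted p = 0.037, beside 1.27% of all genes lower and 0.35% higher). The IRF4 median was 3.37 CPM in them and 11.6 CPM in other macrophages, and 14 of 14 mice had the lower value in TREM2+ cells (exact permutation p = 0.000122, adjusted p = 0.0016). The edgeR call did not hold without cycling cells (-0.57), in reaction 2 alone (-0.38) or with at least 20 cells per sum (-0.87), and turned to 0.12 with gates of 3 UMIs (edgeR adjusted p = 0.95). KLF4 (-0.50 ± 0.11), CEBPB (-0.42 ± 0.10) and ID2 (0.35 ± 0.12) had an edgeR adjusted p under 0.05 below the fold limit. Of all genes tested 14.8% had such an adjusted p at any fold. These 2 tests of IRF4 have different opponents, since the fit averaged GLUT1+, LYVE1+ and other macrophages.

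Macrophages with at least 5 UMIs of CXCL10, an interferon-induced chemokine, were compared with those of at most 1 UMI, 665 cells against 4645 in 14 mice. No member was called (1.19% of all genes were higher and 0.746% lower). Under the fold limit, BATF3 (0.87 ± 0.16) and TCF4 (0.41 ± 0.07) had positive log2 fold changes, and CEBPB (-0.33 ± 0.06) and MAF (-0.30 ± 0.07) negative ones, each with an edgeR adjusted p of 0.0023 or smaller. The BATF3 level ran from 17.7 over a median of 26.2 to 47.2 CPM in CXCL10-high cells and from 9.22 over 15.7 to 26.5 CPM in CXCL10-low cells, so the ranges overlapped. The CXCL10-high cells held 12997 UMIs on average against 9475. Cells with at least 3 UMIs of the metallothionein gene MT1G, 537 against 4533 without a UMI, had no called member either (0.283% of all genes higher, 0.829% lower). MAF had a log2 fold change of -0.55 ± 0.09 (edgeR adjusted p = 7.8e-05) and IRF8 of -0.36 ± 0.11 (adjusted p = 0.031), with MAF at a median of 290 CPM in MT1G-high and 456 CPM in MT1G-low cells. They held 13844 UMIs on average against 9223. The part of this gap in the results was not tested.

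Among 37 other lineage factors listed for comparison, 31 or 33 could be tested in each contrast. In pDC against cDC2, 6 rose and 15 fell, led by SPIB (log2 fold change 6.36 ± 0.51), a pDC factor of the PU.1 family, RUNX2 (6.29 ± 0.32) and EGR2, of which pDC held 2 UMIs and cDC2 97; the median was -0.91 against -0.16 over all genes. In cDC1 against cDC2, 1 rose, ZBTB46 (1.78 ± 0.34), which marks conventional dendritic cells, and 10 fell, led by TFEC (-2.24 ± 0.42) and ZEB2 (-2.01 ± 0.24). Mature dendritic cells against cDC1 gave 13 higher and 1 lower, among them RUNX2, with 3 UMIs in cDC1 and 56 in mature dendritic cells, TFEC (2.13 ± 0.44) and PRDM1 (1.87 ± 0.42). Against cDC2 they gave 6 higher and 5 lower, with SPIB (2.14 ± 0.66), RUNX2 (1.77 ± 0.52) and KLF2 (-1.63 ± 0.26) in front. SPIB rests on few counts there, 31 pooled UMIs in mature dendritic cells and 11 in cDC2.

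In monocytes against macrophages 5 rose and 3 fell, with PPARG (2.65 ± 0.16), a lipid-sensing nuclear receptor, RBPJ (-1.67 ± 0.18), the effector of Notch signaling, and BCL11A (1.56 ± 0.17) leading. GLUT1+ macrophages had PPARG (1.96 ± 0.25) and MITF (1.15 ± 0.12) higher and RBPJ (-1.11 ± 0.19) lower. In LYVE1+ macrophages 4 rose and 6 fell, with RUNX2 (-2.12 ± 0.53), PPARG (-1.95 ± 0.46) and RUNX3 (-1.91 ± 0.32) largest in size. In cDC2 against monocytes SPIB (2.04 ± 0.79) and ZBTB46 (1.05 ± 0.24) rose and PPARG (-1.95 ± 0.25) fell, and in TREM2+ macrophages none of the 33 was called (edgeR). SPIB was low on both sides, with 11 pooled UMIs (3.82 CPM) in cDC2 and 14 (0.991 CPM) in monocytes. In CXCL10-high macrophages IRF1 (1.40 ± 0.13), an interferon-response factor, rose and PPARG (-1.59 ± 0.18) fell.

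The genes whose mean log2(CPM + 1) followed a member most closely over the 9 myeloid classes were taken from 11114 genes. For TCF4 they were CCDC50 (Pearson r = 0.993), FBXW11 and PHC3, and for IRF4 HIVEP1 (r = 0.99), AC024560.5 and WDR48, all highest in pDC. For IRF8 they were DNASE1L3 (0.976), a secreted nuclease gene, CYYR1 and LINC01724. For BATF3 they were MBD2 (0.973), SRPK1 and ATG3, all highest in cDC1, and for ID2 EZH2 (0.946), AC005225.2 and SDK1. MAF was followed by ICA1 (0.993), CDK10 (whose highest mean CPM over mice was in cDC1) and UACA. KLF4 was followed by C16orf72 (0.978), SLC66A2 and UNC50, CEBPB by SH3BP5 (r = 0.99), IVNS1ABP and SOCS6, and SPI1 by STAC (0.984), RHOG and RIN3. Among the members, CEBPB and SPI1 were most alike (r = 0.91), followed by IRF4 and TCF4 (0.83). The 9 points share libraries and mice and were picked from many genes, so these values carry no test.

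Maraviroc was compared with no treatment within a class over mice. No member passed an adjusted p of 0.05 in any class tested, and neither did any other gene (edgeR, 0% of genes called in each of all gated myeloid cells, monocytes, macrophages, cDC2 and mature dendritic cells). At an unadjusted p under 0.05 there were 480 of 12479 genes in all myeloid cells, 370 of 8063 in monocytes, 338 of 11723 in macrophages, 215 of 3731 in cDC2 and 143 of 3310 in mature dendritic cells, and DESeq2 called 1 gene in monocytes and 0 in the others (406, 287, 281, 170 and 136 genes at an unadjusted p under 0.05). In all myeloid cells together IRF8 (log2 fold change 0.28) and IRF4 (0.78) were among these, and MAF (0.40) in monocytes. Within reactions 1 and 2 these were 0.40 and 0.12 for IRF8, 0.07 and 0.90 for IRF4, and 0.15 and 0.79 for MAF. The 3 factors that are highest in pDC, IRF4, IRF8 and TCF4 (0.34), had the largest estimates there, and pDC made up 1.05% to 3.52% of the gated myeloid cells under maraviroc (median 2.40%) and 0.656% to 3.65% untreated (median 1.43%; exact permutation p = 0.178, two-sided, over all mice). The share also differed in range between the reactions. In reaction 1 it was 1.05% to 1.92% under maraviroc and 0.656% to 1.49% untreated (exact permutation p = 0.343), and in reaction 2 it was 2.40% to 3.52% and 1.43% to 3.65% (p = 0.4). With the treatments permuted within each reaction the exact p was 0.165. The part of this share in the result was not tested, and in sums over all myeloid cells fewer cells of a class and less RNA per cell cannot be told apart. Within macrophages the estimates of the 9 members lay between -0.04 and 0.27. In cDC2 7 of 9 members were tested, since IRF4 and BATF3 did not pass the filter on low counts there. pDC and cDC1 were not tested for treatment, as a minimum of 3 mice with 10 cells in each arm had been set. IRF8 in pDC was 1133 and 1099.5 CPM in the 2 untreated mice and 938 to 1387 CPM in 4 maraviroc mice. IRF4 was 847 and 1005 CPM against 816 to 1514 CPM. The mice of reaction 1 among these, maraviroc mouse 1 and untreated mouse 4, had the lowest IRF4 levels (816 and 847 CPM).

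**Figure D5:**
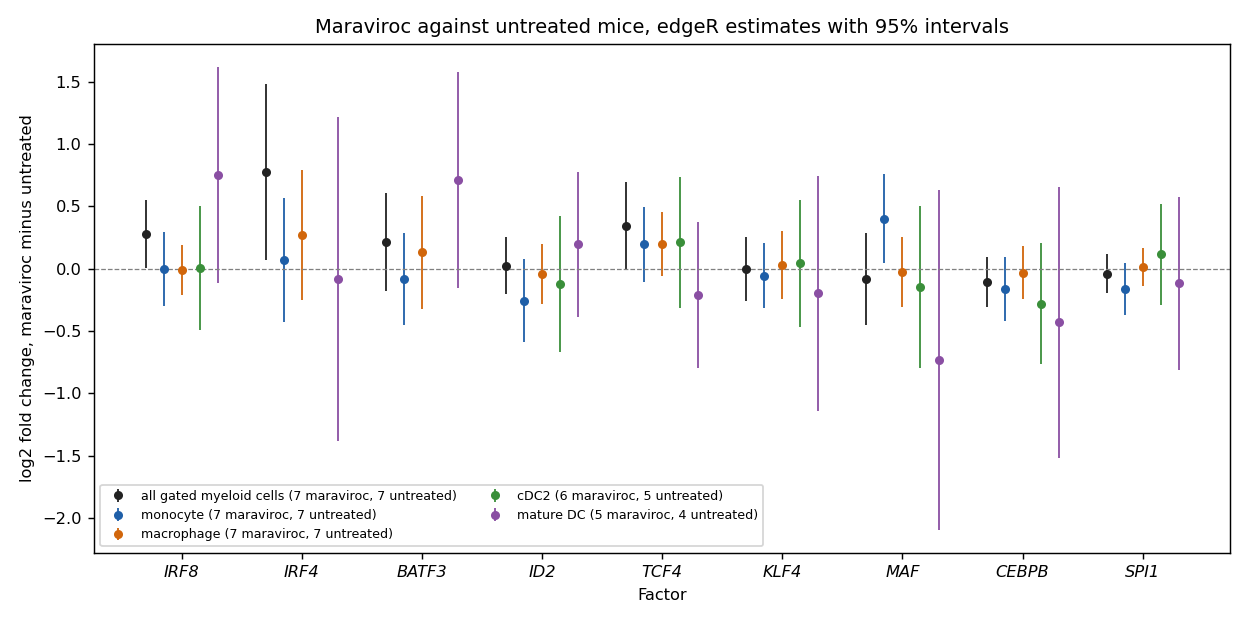
Log2 fold change of maraviroc against untreated mice for each member (x axis) in 5 sets of cells (colours, with the number of mice), points the edgeR estimates and bars their 95% intervals. The intervals are widest in mature dendritic cells, and no member was called in any set. IRF4 and BATF3 were not tested in cDC2, where they did not pass the filter on low counts.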

How the data were processed

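Single-cell RNA libraries of human CD45+ cells sorted from the tumors of 14 mice were measured in 2 reactions. The authors deposited raw UMI counts per gene and hashtag counts per barcode, made with Cell Ranger 9.0.1 on GRCh38 per the submitters' processing notes, which also name Seurat 5.1.0. Barcodes entered here if they held more than 600 but no more than 6000 genes with a UMI and a mitochondrial share below 12.5%, and hashtags were called with HTODemux (Seurat 5.3.0, quantile 0.99), which removed barcodes with several hashtags as doublets; doublets within a mouse were not called. A gate needed 2 UMIs over its marker genes. Counts were summed per mouse and class, from at least 10 cells (3 for cDC1). They were tested over all genes with edgeR 4.0.16 (quasi-likelihood, TMM, mouse as a block for classes, Benjamini-Hochberg adjustment). The contrasts with cDC1 were fitted on sums of at least 3 cells in every class, with 6152 genes tested. The standard error comes from the F statistic. DESeq2 1.42.0 was the alternative tool. Levels of a member were compared within mice by exact two-sided permutation of signs on log2(CPM + 1), adjusted over 576 pairs of classes and members. Counting intervals are exact at 95% and cover counting error only. Scripts were tested on simulated data.

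The members, gene lists and tests were chosen with earlier results of these data known. The named genes are the 9 members, the 3 called other factors with the largest fold change in each contrast, and the 3 genes most like each member. Departures from the planned design, made after the data and members' levels had been seen, were a tumor cell gate on EGFR alone in place of EGFR and CD109, since the first form took mostly macrophages, and the minimum of 3 cells for cDC1, of which 1 mouse had 10. In the contrasts with cDC1 that minimum held for every class. For cDC1, 7 forms of the gate were looked at by check markers and cell numbers, and the planned one was kept.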

Additional observations from a re-analysis of the deposited data

Results flagged for a closer look

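In 135 groups of 4 to 7 mice of 1 treatment, 17 (12.6%) held a mouse whose level lay far from others by Dixon's test. The chance rate of that test, about 1 in 20, assumes independent and normally distributed values. Here the same mice recur across members and classes, and groups can hold mice of both reactions, which differ in depth. The share over all genes is not given, so the 12.6% cannot be read as an excess. Many of the 17 flagged levels rest on few cells or UMIs. In cDC1, IRF4 was 63.3 CPM in untreated mouse 4 (1 UMI in 3 cells, the others at 0), BATF3 518 CPM in untreated mouse 1 (3 cells, nearest 190 CPM) and MAF 52.6 CPM in maraviroc mouse 1 (5 cells, nearest 18.7 CPM). In pDC, BATF3 was 5.93 CPM in maraviroc mouse 5 (1 UMI, the others at 0).

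In mature dendritic cells IRF4 was 32.4 CPM in maraviroc mouse 3, the only maraviroc mouse of reaction 1 there, against 226 CPM in the nearest, BATF3 was 134 CPM in maraviroc mouse 5 (nearest 74.1 CPM) and CEBPB 269 CPM in untreated mouse 3 (nearest 69.0 CPM). In cDC2, TCF4 was 358 CPM in untreated mouse 1 (nearest 179 CPM) and KLF4 93.9 CPM in untreated mouse 3 (nearest 157 CPM).

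In GLUT1+ macrophages maraviroc mouse 6 was high in both IRF4 (28.3 CPM, nearest 8.20 CPM) and ID2 (339.6 CPM, nearest 211 CPM), from 14 cells. ID2 there was 385 CPM in untreated mouse 3 (nearest 214 CPM), and TCF4 was 356 CPM in maraviroc mouse 7 (nearest 201 CPM) and 204 CPM in untreated mouse 1 (nearest 141 CPM). In other macrophages MAF was 259 CPM in maraviroc mouse 6 (nearest 380.4 CPM). In monocytes ID2 was 268 CPM in untreated mouse 2 (nearest 182 CPM) and CEBPB 232 CPM in maraviroc mouse 2 (nearest 390.5 CPM). A difference between the 2 reactions in the effect of maraviroc on a member was looked for in 43 tests. None passed, the lowest adjusted p being 0.273 (edgeR interaction term). At an unadjusted p under 0.05 there were 9, and the share of all genes at that limit is not given here. The tests overlap, since all gated myeloid cells hold the monocytes and macrophages.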

How the results depend on the processing

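Of 576 pairs of classes and members, 297 passed in the main setting. They include the pairs with NK cells, and the share of all genes under this test is not given here. With gates of 3 UMIs 166 of 513 passed, and with at least 20 cells 104 of 396. With the tumor gate as first written 191 of 459 passed, and with CD163 and MRC1 in the macrophage gate 333 of 495. In reaction 1 alone, reaction 2 alone and untreated mice alone 0 passed, where at most 7 mice enter a pair. Summed over the 9 contrasts there were 10380 calls, 16731 without the low-count filter and 25176 by adjusted p alone. A gene called in several contrasts counts once in each, so these are not numbers of genes. Reaction 1 alone gave 2575 calls in the 4 contrasts it allowed, against 4495 in the main setting. Of 81 member values 31 were called, to be read beside the shares of all genes given with each contrast above. By adjusted p alone 52 were called. There the share of all genes ran from 14.8% in TREM2+ against other macrophages to 57.4% in monocytes against macrophages. With CD163 and MRC1 in the macrophage gate 11 were called in 6 contrasts, against 19 in the main setting. Calls over all genes there ran from 182 of 7618 (TREM2+ macrophages) to 1518 of 6903 (mature dendritic cells against cDC1). IRF4 in TREM2+ macrophages turned from -1.17 to 0.12 with gates of 3 UMIs, and the cause was not tested. DESeq2 and a higher minimum of detected genes changed no member call. Under maraviroc, monocytes had 1 gene called in reaction 1 alone, 1 by DESeq2 and 3 without the filter, cDC2 18 and mature dendritic cells 53 without the filter, and leaving out each mouse in turn, run for cDC2 and mature dendritic cells, gave 0. No paired analysis by replicate number was possible because the labels give a single group with 2 pooled reactions. The tumor gate as first written, the fits without cycling cells, with untreated mice alone and without single mice, and the pDC share permuted within reactions, were chosen after seeing the data. cDC1, LYVE1+ macrophages and pDC are limited by cell number.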
